A study of Mus musculus with 6 samples.

Results

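Clustered histone genes encode the core histones H2A, H2B, H3 and H4 and the linker histone H1. They were taken as every gene whose symbol in the deposited tables begins with Hist1h, Hist2h, Hist3h or Hist4h, and their FPKM, in which fragment numbers are scaled by transcript length and by the mapped fragments of the library, were summed over transcripts of a symbol. The rule found 68 genes of 24346 symbols, listed in 79 of 34535 transcript rows: 6 H1, 18 H2A, 19 H2B, 12 H3 and 13 H4 genes. By position, 54 lie in the Hist1 cluster on chromosome 13, 10 in Hist2 on chromosome 3, 3 in Hist3 on chromosome 11 and 1, Hist4h4, on chromosome 6. Of these, 61 reached an average of 1 FPKM across the 6 libraries and were tested, and Hist1h2aa and Hist2h2aa2 were at 0 in every library. The other 5 untested members, Hist1h1a, Hist1h1t, Hist1h3c, Hist1h3g and Hist3h2bb-ps, lay between 0 and 1.69 FPKM.

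The 6 libraries came from sorted prostate luminal cells, the secretory cells lining the glands, of C57BL/6 mice aged 4 months. PB libraries were made from transgenic mice in which the rat probasin promoter, active in prostate luminal epithelium, drives mouse Csf1, the gene of the macrophage growth factor CSF1. WT libraries were made from their wild-type littermates. Each group had 3 libraries, titled with the numbers 3, 5 and 8, and nothing in the labels ties a library to its own animal, so p-values here reflect only how far these libraries spread, which may be technical.

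A dividing cell needs new histones while it copies its DNA, and most clustered histone genes are transcribed in S phase for this purpose. Their messenger RNAs have no introns and usually no poly(A) tail. They end instead just after a short stem-loop bound by the protein SLBP, and are degraded when replication stops. Some members also have polyadenylated forms that are kept in cells that no longer divide, and a separate set of replacement variant genes, outside the clusters and polyadenylated, supplies histones throughout the cell cycle. The cDNA was primed with both random and oligo-dT primers, per the labels' protocols, and how much of any histone signal came from each primer was not tested.

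Of the 61 tested members, 15 fell in PB and 1 rose (limma, Benjamini-Hochberg adjusted p below 0.05 over 10960 genes), where 7.46% of all tested genes fell and 24.9% rose. In either direction 16 members were called, where 32.4% of all tested genes were. Of the 15, 11 were H4 genes, 3 were H2A genes and 1 was an H3 gene, while none of the 18 H2B and 4 H1 genes tested was called. The 11 H4 genes were every H4 gene of the Hist1 cluster, and the other 4 that fell all lay in Hist2. The median log2 change was -0.27 over the tested members and 0.17 over all tested genes. In bulk samples, fewer cells of a type and less RNA per cell cannot be told apart. With quantile normalization, which moved the median of all tested genes to -0.16, 42 members fell and 1 rose, where 21.1% of all tested genes fell, and with libraries rescaled outside their 5 most abundant genes 23 fell and 1 rose, where 14.6% of all tested genes fell.

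The promoter letters around an element typical of H4 genes are shown because H4 genes made up most of the members that fell. Its core, GGTCCG, belongs to a site known in mammals to be bound by the factor HINFP. RefSeq windows (GRCm38.p6) from 250 bases before to 50 bases after the start were found for 62 of the 68 members, and for 12 of the 13 H4 genes. GGTCCG stood on either strand in 11 of the 12 H4 windows, in 2 of the other 50 member windows (Hist1h2bh and Hist1h3i) and in 8.25% of all 32851 windows. The lines below give 30 bases around each H4 match on the gene's strand, 5′ to 3′, with GGTCCG in capitals.
Hist1h4b (chr13:23756931-23756960, plus strand): agttctcaaccaGGTCCGataagagcctat
Hist1h4c (chr13:23698487-23698516, minus strand): agttttcaaccaGGTCCGcagaaggcctat
Hist1h4d (chr13:23581509-23581538, plus strand): ggttttcaaacaGGTCCGcattggtattat
Hist1h4f (chr13:23551697-23551726, minus strand): agtcctctaaaaGGTCCGcattcgccatat
Hist1h4h (chr13:23531027-23531056, plus strand): agtcttcaatcaGGTCCGaaaacactgcat
Hist1h4i (chr13:22041391-22041420, minus strand): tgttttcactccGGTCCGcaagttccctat
Hist1h4j (chr13:21735004-21735033, plus strand): ggttctcatttcGGTCCGcccgctacagta
Hist1h4k (chr13:21750568-21750597, minus strand): ggttctcatttcGGTCCGcccgccgcagta
Hist1h4m (chr13:21811687-21811716, plus strand): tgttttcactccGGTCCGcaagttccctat
Hist1h4n (chr13:21832226-21832255, minus strand): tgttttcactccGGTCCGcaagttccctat
Hist4h4 (chr6:136804446-136804475, minus strand): tgttttcaatcaGGTCCGctcccaggaaat
The first G lay 46 or 47 bases before the annotated start in 6 of the 11 genes, and 5 of the 11 had the longer run CAGGTCCG, which 0.834% of all windows hold on either strand. Of the 11 genes shown, 10 fell in PB and Hist4h4 was not called, and Hist1h4a, whose window lacks these letters, fell.

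Whole promoter windows of 3 highly expressed members, of types H4, H2A and H2B, are given with GGTCCG, the TATA box letters TATAAA, the CCAAT box letters CCAAT and the octamer ATTTGCAT of H2B promoters in capitals on whichever strand they occur.
Hist1h4d (chr13:23581318-23581617, plus strand): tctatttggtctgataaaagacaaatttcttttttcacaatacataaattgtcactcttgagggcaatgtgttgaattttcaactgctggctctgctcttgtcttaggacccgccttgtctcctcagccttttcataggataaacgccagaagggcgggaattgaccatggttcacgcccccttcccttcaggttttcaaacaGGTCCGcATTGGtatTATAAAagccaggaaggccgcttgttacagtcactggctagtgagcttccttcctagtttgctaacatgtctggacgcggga
Hist2h2aa1 (chr3:96245247-96245546, plus strand): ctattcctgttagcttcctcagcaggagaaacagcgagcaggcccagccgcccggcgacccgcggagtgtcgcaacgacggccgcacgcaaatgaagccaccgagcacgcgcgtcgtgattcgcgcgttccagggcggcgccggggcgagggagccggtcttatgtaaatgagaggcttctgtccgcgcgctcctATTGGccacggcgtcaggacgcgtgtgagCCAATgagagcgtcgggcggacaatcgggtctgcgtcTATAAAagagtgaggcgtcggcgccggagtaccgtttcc
Hist1h2bg (chr13:23571150-23571449, plus strand): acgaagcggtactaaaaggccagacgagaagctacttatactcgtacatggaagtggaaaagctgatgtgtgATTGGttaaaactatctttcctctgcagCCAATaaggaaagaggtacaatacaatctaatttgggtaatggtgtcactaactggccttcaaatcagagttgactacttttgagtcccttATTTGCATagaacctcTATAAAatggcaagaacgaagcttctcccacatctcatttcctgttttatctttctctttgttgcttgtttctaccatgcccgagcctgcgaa
CCAAT was found in 3 of the 12 H4 windows, against all 6 H1, all 18 H2A, all 16 H2B and all 10 H3 windows, and in 37.4% of all windows. The octamer was in 7 of 18 H2A and 7 of 16 H2B windows, in none of the H1, H3 and H4 windows and in 1.74% of all. TATAAA was in 8 of the 12 H4, 4 of 6 H1, 11 of 18 H2A, 8 of 16 H2B and 4 of 10 H3 windows, and in 13.6% of all. Among the 15 members that fell, 10 had GGTCCG, 7 had CCAAT and 1 had the octamer. Among the 47 other members with a window, 3 had GGTCCG, 46 had CCAAT and 13 had the octamer. These 47 include untested members, such as Hist1h2aa and Hist2h2aa2, and Hist1h2ao, which rose. The 10 that fell with GGTCCG were all H4 genes, so a link of these letters to the fall cannot be told apart from histone type. A match is a description of the letters in the window and was not tested as a binding site.

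The 3′ stem-loop is shown because it ends the non-polyadenylated messages. It was searched as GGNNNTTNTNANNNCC, with the outer 6 bases on each side able to pair, on the sense strand of GENCODE transcripts (GRCm38). It was found in 46 of the 68 members and in 0.114% of 141691 transcripts of other genes. Each line gives the coordinates of the stem-loop, with its letters in capitals and up to 5 flanking bases on either side.
Hist1h4d (chr13:23581950-23581965, plus strand): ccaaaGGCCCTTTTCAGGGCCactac
Hist1h4m (chr13:21812129-21812144, plus strand): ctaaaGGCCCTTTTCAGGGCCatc
Hist1h4j (chr13:21735437-21735452, plus strand): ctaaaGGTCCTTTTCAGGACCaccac
Hist1h4i (chr13:22040966-22040981, minus strand): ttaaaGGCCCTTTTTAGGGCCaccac
Hist1h4a (chr13:23760800-23760815, minus strand): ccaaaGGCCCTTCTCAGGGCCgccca
Hist2h2aa1 (chr3:96246032-96246047, plus strand): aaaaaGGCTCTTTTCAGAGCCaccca
Hist2h2ac (chr3:96220418-96220433, minus strand): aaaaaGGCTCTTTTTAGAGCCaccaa
Hist1h2bg (chr13:23571843-23571858, plus strand): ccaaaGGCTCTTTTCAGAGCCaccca
Hist1h1c (chr13:23739512-23739527, plus strand): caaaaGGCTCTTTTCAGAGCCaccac
All 12 H4 genes with a match had a stem that begins GGCCC or GGTCC, and all 34 other members with a match had one that begins GGCTC. The letters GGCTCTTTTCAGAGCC were in 26 members, of which 2 fell, and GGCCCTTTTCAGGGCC in 7 members, of which 6 fell. Many transcripts without a match, such as that of Hist1h4k, are annotated little beyond the coding region.

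The labels were first checked on Csf1, which stood at 1082, 1326 and 1678 FPKM in PB replicates 3, 5 and 8, against 1.54, 2.25 and 3.98 FPKM in WT replicates 3, 5 and 8. Between 11102 and 11231 genes lay above 1 FPKM in PB libraries and between 9926 and 10089 in WT libraries. Mean read depth per FPKM, which grows with sequencing depth, was 4.17 to 5.01 in PB and 2.72 to 3.50 in WT, and tested members had a median read depth of 32.0 in PB and 29.9 in WT libraries. The luminal markers were at 8554 to 17075 summed FPKM in PB and 10739 to 30077 in WT, with none of the 11 at 0. Of these 11 markers 3 rose and 1 fell, near the shares of all tested genes, of which 24.9% rose and 7.46% fell. Markers of other cells were higher in PB. All 15 macrophage and monocyte markers rose, with a summed level of 767 to 3085 FPKM in PB and 19.97 to 113 FPKM in WT and none at 0 in either group. Of the 9 basal epithelial markers tested, 8 rose (567 to 899 FPKM in PB, 66.4 to 81.1 FPKM in WT, none at 0), as did 9 of 9 tested fibroblast and smooth muscle markers (529.8 to 794 FPKM in PB, 103 to 114 FPKM in WT, none at 0) and 3 of 3 tested endothelial markers (12.95 to 17.5 FPKM in PB, 1.14 to 3.60 FPKM in WT, none at 0). All 4 tested lymphocyte markers rose. Of 8 listed neutrophil markers only 1 was tested, and it was not called, with a log2 change of 2.28 and no overlap. The neutrophil sums were 1.40 to 32.2 FPKM in PB and 0 to 0.133 FPKM in WT, and Ngp and Mpo were at 0 in both groups. Of 5 listed red blood cell markers 3 were tested and none was called. The red blood cell sums were 404 to 3772 FPKM in PB and 64.7 to 336 FPKM in WT, and Hba-a2 was at 0 in both groups. The part of these non-luminal cells in the histone results was not tested. PB replicate 8 had the highest macrophage sum, 3085 FPKM, and its summed H4 level of 265 FPKM lay between those of PB replicate 5 (262 FPKM) and PB replicate 3 (339.7 FPKM).

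Histone H4, of which a pair of copies sits in every nucleosome, is encoded by many gene copies that mostly give the same protein. Summed over its 13 genes, H4 stood at 339.7, 262 and 265 FPKM in PB replicates 3, 5 and 8, against 593, 719.6 and 709 FPKM in WT replicates 3, 5 and 8. Every PB library lay below every WT library, and the group means were 289 ± 43.9 FPKM in PB and 674 ± 70.2 FPKM in WT (SD, n = 3 each), a log2 ratio of -1.22. Sums over members carry no test.

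Hist1h4d was the most abundant H4 gene, with 37.7% of the H4 sum in PB and 28.3% in WT. It had 129.9, 98.7 and 99.2 FPKM in PB, against 209, 183 and 171 FPKM in WT. PB replicate 3 was the highest of its group, and the groups did not overlap. Its log2 change was -0.78 (SE 0.15, limma adjusted p = 0.00505), and among the 11 only that of Hist1h4i was smaller. Without replicate 5 of both groups its adjusted p was 0.0835, with a change of -0.73.

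Hist1h4h stood at 43.8, 22.5 and 26.0 FPKM in PB, against 86.3, 84.2 and 78.2 FPKM in WT. All WT libraries were close together, and the highest PB library, replicate 3, was well below them. The log2 change was -1.46 (SE 0.23, limma adjusted p = 0.00173). Hist1h4c had 25.1, 21.8 and 13.5 FPKM in PB, against 47.5, 64.4 and 70.9 FPKM in WT. Here PB replicate 8 was the lowest and WT replicate 8 the highest, with no overlap, and the log2 change was -1.57 (SE 0.24, limma adjusted p = 0.00159).

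Hist1h4m and Hist1h4n overlap at 1 place on chromosome 13 and share most of their letters (89.8% of the 50-base windows of Hist1h4m), so how reads were divided between them is uncertain. Together they had 52.9, 53.2 and 53.5 FPKM in PB, against 100.5, 216 and 209.8 FPKM in WT. The PB libraries were nearly equal, and WT replicate 3 stood apart below the other WT libraries but above all PB libraries. Over all 13 H4 genes, 1.01% to 89.8% of these windows (median 39.5%) occur in another gene, with medians of 73% for H2A, 44.1% for H2B and 62% for H3 genes, and single-gene values share this uncertainty. Taken singly, their log2 changes were -1.59 for Hist1h4m (limma adjusted p = 0.0026) and -1.62 for Hist1h4n (limma adjusted p = 0.00254), the largest of the H4 genes.

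Hist1h4j had 23.7, 14.2 and 14.1 FPKM in PB, against 48.9, 47.7 and 40.7 FPKM in WT, and its log2 change was -1.39 (limma adjusted p = 0.00143). Hist1h4i had 31.4, 23.5 and 33.4 FPKM in PB, against 43.0, 45.5 and 58.6 FPKM in WT. Both separated the groups without overlap, Hist1h4i by a narrower margin for its level than Hist1h4j, with a log2 change of -0.72 (limma adjusted p = 0.0164). Its call was lost without PB replicate 5 (adjusted p = 0.0556), without WT replicate 8 (0.0548) and without replicate 5 of both groups (0.128).

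The remaining Hist1 H4 genes were less abundant. Hist1h4b had 6.59, 5.66 and 5.97 FPKM in PB, against 12.8, 21.9 and 24.1 FPKM in WT. Hist1h4a had 6.09, 4.36 and 5.04 FPKM in PB, against 12.1, 15.5 and 13.5 FPKM in WT. Hist1h4f had 6.52, 4.79 and 5.93 FPKM in PB, against 13.5, 15.9 and 17.3 FPKM in WT. In each of these genes even the lowest WT library stood well above the highest PB library. Hist1h4k had 7.60, 6.79 and 6.63 FPKM in PB, against 14.6, 16.8 and 15.9 FPKM in WT. The log2 changes of these genes ran from -1.50 for Hist1h4b to -1.07 for Hist1h4k, with limma adjusted p between 0.000701 for Hist1h4f and 0.00155 for Hist1h4b.

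The H4 genes outside Hist1 were not called, although Hist2h4 was called lower under each of the 3 other scalings (quantile, median-ratio and rescaling outside the 5 most abundant genes) and without PB replicate 5. Hist2h4 had 1.83, 3.76 and 1.75 FPKM in PB, against 3.32, 4.03 and 5.19 FPKM in WT. PB replicate 5 lay within the WT range, and the log2 change of -0.62 had a limma adjusted p of 0.106. Hist4h4 had 4.16, 2.84 and 0.509 FPKM in PB, against 1.95, 4.07 and 3.11 FPKM in WT, so its PB libraries spanned the WT range on both sides. Its log2 change of -0.35 had a 95% interval of -1.34 to 0.65 (limma adjusted p = 0.589), which includes the change of Hist1h4a. Both were low genes, and whether their changes differ from those of the Hist1 genes was not tested.

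**Figure D1:**
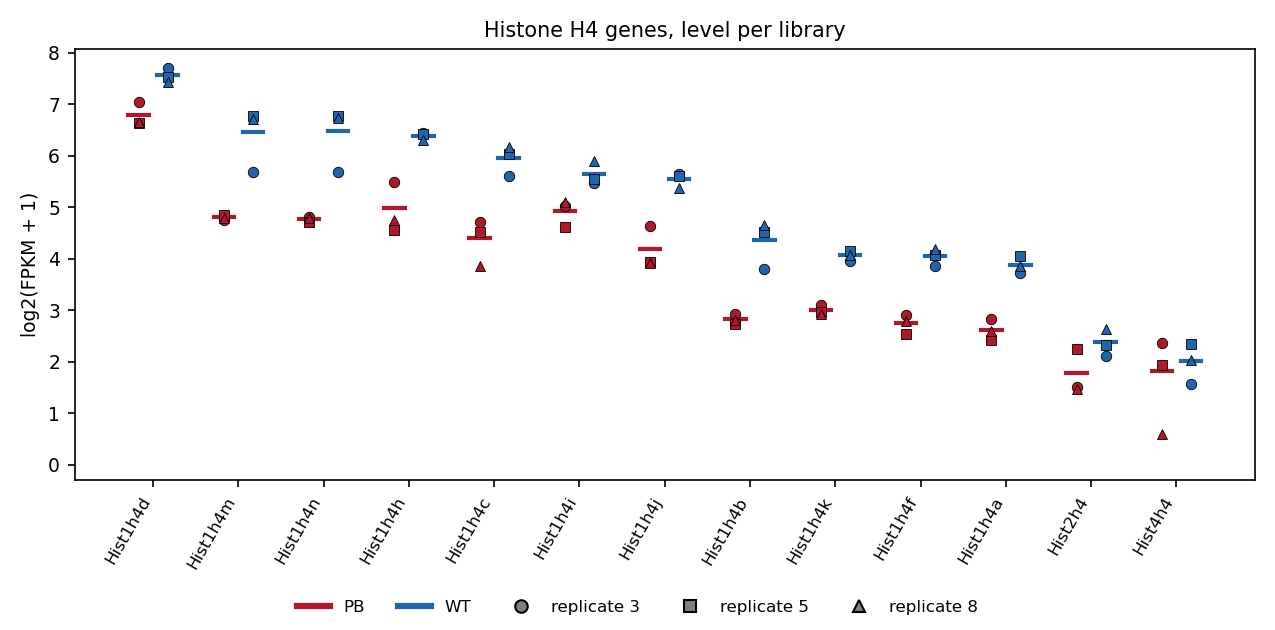
Level of the 13 histone H4 genes in each library as log2(FPKM + 1), ordered by mean level, with PB in red left of WT in blue; each symbol is 1 library and each bar marks the group's mean FPKM on the same scale. In the 11 genes of Hist1 all PB symbols lie below all WT symbols, while Hist2h4 and Hist4h4 overlap.

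H4 genes are scattered among genes of the other types in Hist1, which spans chr13:21715713-23934913 in the deposited loci (mm10). The nearest member of another type lay between 636 and 12570 bases from each of the 11 H4 genes, with a median of 1701 bases. None of these neighbours was called lower in the fit reported. With quantile normalization 5 of the 9 distinct tested neighbours were (Hist1h1d, Hist1h2af, Hist1h2be, Hist1h2bm and Hist1h3a), where 21.1% of all tested genes fell. With median-ratio scaling 2 were, where 16.1% of all tested genes fell. Rescaling outside the 5 most abundant genes gave 3, where 14.6% of all tested genes fell. In the fit reported, the neighbour was not called for 8 H4 genes and was not tested for 1 (Hist1h1t beside Hist1h4c). For Hist1h4m and Hist1h4n the neighbour counted was Hist1h2ao, which rose. Hist1h2ap lies equally near to both and was not called (limma adjusted p = 0.983). Hist1h4a, for example, lies 636 bases from the H3 gene Hist1h3a, whose log2 change of -0.55 was not called (limma adjusted p = 0.131), and Hist1h4d lies 1701 bases from the H2B gene Hist1h2be, whose log2 change of -0.35 was not called (limma adjusted p = 0.12).

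H2A pairs with H2B at the outer faces of the nucleosome. The H2A sum was 788, 751 and 739.9 FPKM in PB, against 1341, 1282 and 1462 FPKM in WT. No PB library reached the WT range, with means of 759 ± 25.1 FPKM in PB and 1362 ± 91.6 FPKM in WT (SD, n = 3 each) and a log2 ratio of -0.84. Most of it was 1 gene, Hist2h2aa1, with 75.1% of the H2A sum in PB and 85.1% in WT. Without it the H2A sums were 189, 181 and 198 FPKM in PB, against 197, 192 and 218 FPKM in WT, and the groups overlapped.

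Hist2h2aa1 was the most abundant member, at 598, 569.9 and 542 FPKM in PB, against 1144, 1090.2 and 1244 FPKM in WT. Every WT library stood far above every PB library. Its log2 change was -1.02 (SE 0.12, limma adjusted p = 0.000438). The gene is listed at 2 places, a near-identical pair on chromosome 3 (chr3:96239779-96246052 in all), where its values differed by at most 0.205% in any library, so its summed level counts both places. Hist2h2aa2 is listed at the same 2 places, shares all of its 50-base windows with other members and was at 0 in every library, so how reads were divided between the pair of names is uncertain. Other gene models, on the opposite strand and, for Gm20634, on the same strand, overlap the exons of Hist2h2aa1, and their reads cannot be told apart here.

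The other 2 tested H2A genes of Hist2 fell as well, and Hist2h2aa2 was not tested. Hist2h2ac had 23.5, 21.2 and 18.5 FPKM in PB, against 43.5, 36.0 and 44.3 FPKM in WT (log2 change -0.94, SE 0.15, limma adjusted p = 0.00192). Its groups were well separated. Hist2h2ab had 0, 0.0223 and 0.716 FPKM in PB, against 2.10, 0.829 and 3.29 FPKM in WT (log2 change -1.26, SE 0.36, limma adjusted p = 0.0282). PB replicate 8 came close to WT replicate 5, and the gene passed the filter on low values through WT alone. Its call was lost without PB replicate 3 (adjusted p = 0.079), without PB replicate 5 (0.0783), without replicate 3 of both groups (0.176) and with no filter on low values (0.0636). It fell under the minimum for testing without WT replicate 3, WT replicate 8 or replicate 8 of both groups.

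Within Hist1, none of the 12 tested H2A genes fell and Hist1h2ao rose. With quantile normalization 7 were called lower, where 21.1% of all tested genes fell. Hist1h2af, Hist1h2ai and Hist1h2an, 3 genes, were called lower with each of the other scalings. There 16.1% (median-ratio) and 14.6% (rescaling outside the 5 most abundant genes) of all tested genes fell. The H2A sum of Hist1 was 121, 118 and 141 FPKM in PB, against 119.6, 109 and 129.9 FPKM in WT, so the groups overlapped. Hist1h2ao had 19.6, 29.0 and 30.6 FPKM in PB, against 11.5, 10.3 and 16.7 FPKM in WT (log2 change 0.99, SE 0.23, limma adjusted p = 0.0106). Its call was lost without replicate 5 of both groups (adjusted p = 0.127). Hist1h2ap shares 93.1% of its 50-base windows with Hist1h2ao and had 24.0, 13.6 and 24.7 FPKM in PB, against 19.4, 19.9 and 21.4 FPKM in WT (limma adjusted p = 0.983). PB replicate 5 was high in Hist1h2ao and low in Hist1h2ap, and the division of reads between them is uncertain. Their sum was 43.6, 42.6 and 55.3 FPKM in PB, against 30.9, 30.2 and 38.1 FPKM in WT, and did not overlap. Hist3h2a, the only H2A gene of Hist3, had 45.1, 41.6 and 37.0 FPKM in PB, against 31.7, 46.5 and 40.5 FPKM in WT, and was not called (limma adjusted p = 0.786). It was the second most abundant H2A gene, and its groups overlapped fully.

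**Figure D2:**
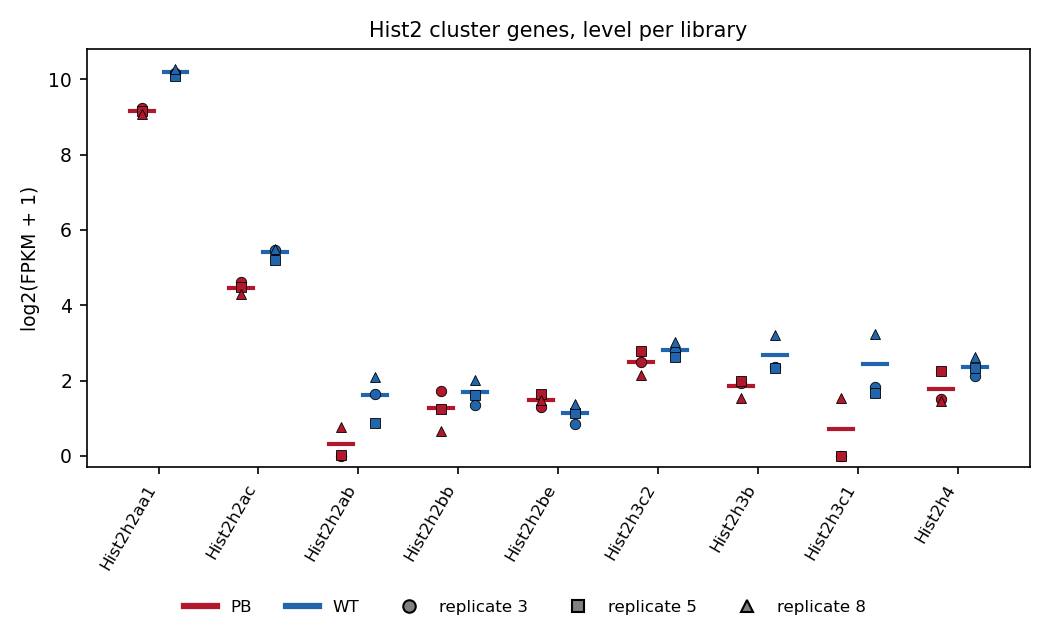
Level of the 9 Hist2 genes with signal in each library as log2(FPKM + 1), grouped by type, with PB in red left of WT in blue; each symbol is 1 library and each bar marks the group's mean FPKM on the same scale. Hist2h2aa1, Hist2h2ac, Hist2h2ab, Hist2h3b and Hist2h3c1 separate the groups, and the H2B genes, Hist2h3c2 and Hist2h4 overlap.

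H2B showed no called change. Its summed level was 404, 325 and 308 FPKM in PB, against 405, 358 and 385 FPKM in WT, so PB replicate 3 lay at the top of the WT range and the others below it. The means were 346 ± 51.7 FPKM in PB and 382 ± 23.8 FPKM in WT (SD, n = 3 each), a log2 ratio of -0.15. Hist1h2bc, the most abundant H2B gene, had 215, 172 and 161 FPKM in PB, against 213, 182 and 181 FPKM in WT, with a log2 change of -0.07 and a 95% interval of -0.41 to 0.26 (limma adjusted p = 0.745). Hist1h2bg had 47.0, 39.0 and 37.1 FPKM in PB, against 49.1, 42.2 and 51.2 FPKM in WT (log2 change -0.21, limma adjusted p = 0.31). Hist1h2be had 29.7, 26.0 and 22.2 FPKM in PB, against 29.4, 35.1 and 35.3 FPKM in WT (log2 change -0.35, limma adjusted p = 0.12). In all of them the groups overlapped. Over the 18 tested H2B genes the log2 changes ran from -0.45 to 0.35 with a median of -0.20, and 16 were below 0, including all 15 of Hist1. With quantile normalization 11 of the 18 were called lower, where 21.1% of all tested genes fell. Hist1h2be and Hist1h2bg were called lower with median-ratio scaling, where 16.1% of all tested genes fell. Hist1h2be alone was with rescaling outside the 5 most abundant genes, where 14.6% fell. The intervals in the fit reported do not show that the H2B genes were unchanged.

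Set against H2B within each library, H4 was at 0.84, 0.807 and 0.863 of the H2B sum in PB, against 1.46, 2.01 and 1.84 in WT. A single scaling factor per library leaves this ratio as it is, and every PB library lay below every WT library. Of the mean H2B sums of 346 FPKM in PB and 382 FPKM in WT, Hist1h2bc alone held 183 and 192 FPKM. No stem-loop was found in its annotated transcript, and the ratio of H4 to H2B without this gene was not computed. H2A without Hist2h2aa1 was at 0.468, 0.557 and 0.642 of the H2B sum in PB, against 0.486, 0.537 and 0.566 in WT, which overlapped. Relative to the median of all tested genes, the median log2 change was -1.47 for H4 genes and -0.37 for H2B genes, and with quantile normalization -1.47 and -0.41.

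**Figure D3:**
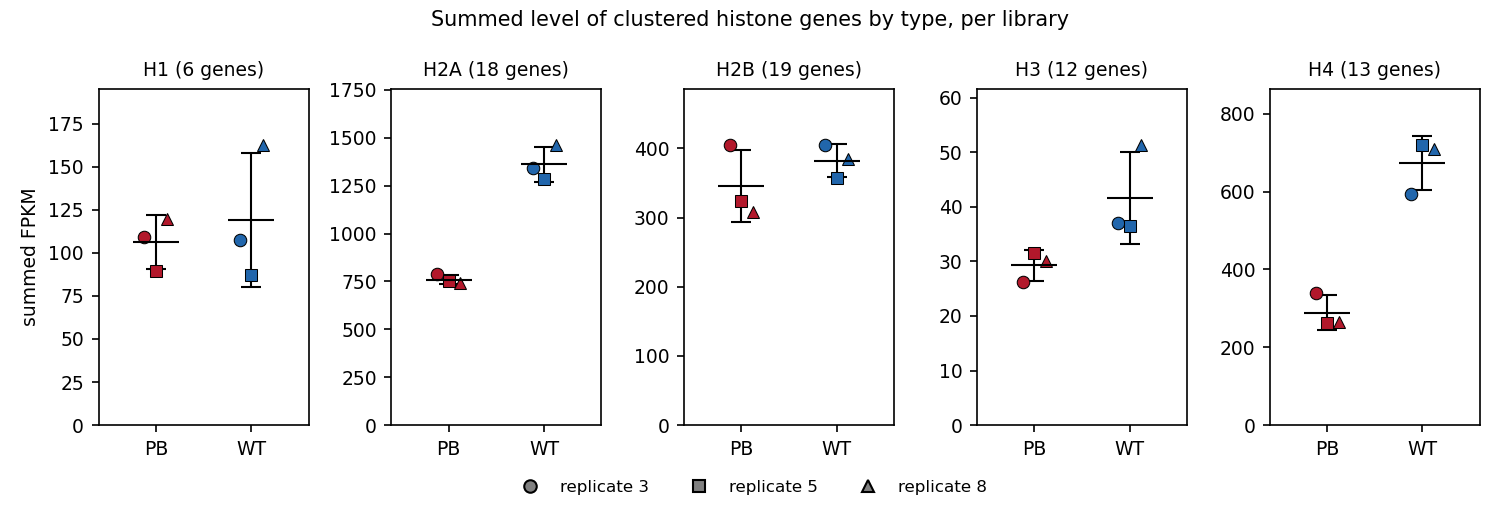
Summed FPKM of the clustered histone genes of each type in each library, with PB left of WT and axes that start at 0; symbols are libraries, the long bar is the mean and the whiskers are the SD (n = 3 each). PB lies below WT without overlap for H2A, H3 and H4, and the groups overlap for H1 and H2B.

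H3 completes the nucleosome core with H4, but the clustered H3 genes were low. Their sum was 26.2, 31.6 and 30.1 FPKM in PB, against 37.0, 36.5 and 51.3 FPKM in WT, with means of 29.3 ± 2.78 FPKM in PB and 41.6 ± 8.43 FPKM in WT (SD, n = 3 each). WT replicate 8 was the highest, and the groups did not overlap. Within Hist1, the 7 tested H3 genes had log2 changes from -0.55 to 0.29 and none was called. With quantile normalization 4 of the 7 were called lower (Hist1h3a, Hist1h3e, Hist1h3f and Hist1h3h), where 21.1% of all tested genes fell. With rescaling outside the 5 most abundant genes Hist1h3a was, and with median-ratio scaling no Hist1 H3 gene was. In these 14.6% and 16.1% of all tested genes fell. Hist1h3e, the most abundant of the Hist1 H3 genes, had 4.62, 6.34 and 5.61 FPKM in PB, against 9.29, 6.07 and 6.41 FPKM in WT, which overlapped (limma adjusted p = 0.25).

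In Hist2, Hist2h3c1 had 0, 0 and 1.89 FPKM in PB, against 2.57, 2.18 and 8.49 FPKM in WT. It fell (log2 change -1.74, SE 0.53, limma adjusted p = 0.0345), but it passed the filter through WT, was listed at 0 in 2 PB libraries, and its call was lost without PB replicate 3 (adjusted p = 0.0978), PB replicate 5 (0.0983), WT replicate 3 (0.0524) or WT replicate 8 (0.107). It was also lost with a pseudocount of 5 (0.0634), without the filter (0.0985), without replicate 3 (0.125) or replicate 5 (0.0976) of both groups, and when the higher of its places was used in place of their sum (0.0526). Hist2h3b had 2.86, 3.01 and 1.91 FPKM in PB, against 4.14, 4.04 and 8.22 FPKM in WT, and narrowly missed the threshold (log2 change -0.80, limma adjusted p = 0.0525). Hist2h3c2 had 4.61, 5.86 and 3.41 FPKM in PB, against 5.84, 5.18 and 7.09 FPKM in WT and was not called (limma adjusted p = 0.258). Hist2h3c1 and Hist2h3c2 are listed at the same 2 places, so how reads were divided between these names is uncertain. The fall of Hist2h3c1 taken singly shares this uncertainty, and the sum of the pair was not computed. Gm20634, on the same strand, overlaps the exons of Hist2h3c1, and their reads cannot be told apart here.

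H1 binds the DNA between nucleosomes and its 4 tested genes, too, showed no called change. Hist1h1d and Hist1h1e were called lower with quantile normalization, where 21.1% of all tested genes fell. Hist1h1e was also called lower with rescaling outside the 5 most abundant genes, where 14.6% fell. The H1 sum was 109, 89.4 and 119.9 FPKM in PB, against 108, 86.9 and 163 FPKM in WT, with overlap. Hist1h1c made up most of it, at 90.7, 74.0 and 100.3 FPKM in PB, against 89.3, 66.2 and 128 FPKM in WT (log2 change -0.06, 95% interval -0.59 to 0.48, limma adjusted p = 0.883). WT replicate 8 was the highest library in Hist1h1c, Hist1h1d and Hist1h1e. Hist1h1d had 10.1, 8.26 and 9.04 FPKM in PB, against 9.12, 11.2 and 20.5 FPKM in WT (limma adjusted p = 0.235), and Hist1h1e had 7.68, 5.17 and 8.04 FPKM in PB, against 7.97, 8.52 and 12.4 FPKM in WT (limma adjusted p = 0.191).

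By cluster, Hist2 summed to 635, 607 and 573 FPKM in PB, against 1208, 1146 and 1325 FPKM in WT. Of its 9 tested genes 4 fell, where 7.46% of all tested genes fell. Of these 4, Hist2h2ab and Hist2h3c1 passed the filter on low values through WT alone, and both lost their calls in several fits. Without Hist2h2aa1 the Hist2 sum was 36.6, 37.4 and 30.6 FPKM in PB, against 63.8, 55.5 and 81.2 FPKM in WT, still without overlap. Hist1 summed to 979, 801 and 847 FPKM in PB, against 1236, 1284 and 1394.5 FPKM in WT. Of its 49 tested genes 11 fell, all H4, and 1 rose, where 7.46% of all tested genes fell and 24.9% rose. Hist3 summed to 49.5, 47.1 and 42.2 FPKM in PB, against 37.6, 49.0 and 46.6 FPKM in WT. Neither of its 2 tested genes was called, where 32.4% of all tested genes were called in either direction. All members together held 0.298%, 0.269% and 0.259% of a library's FPKM in PB, against 0.486%, 0.494% and 0.502% in WT.

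**Figure D4:**
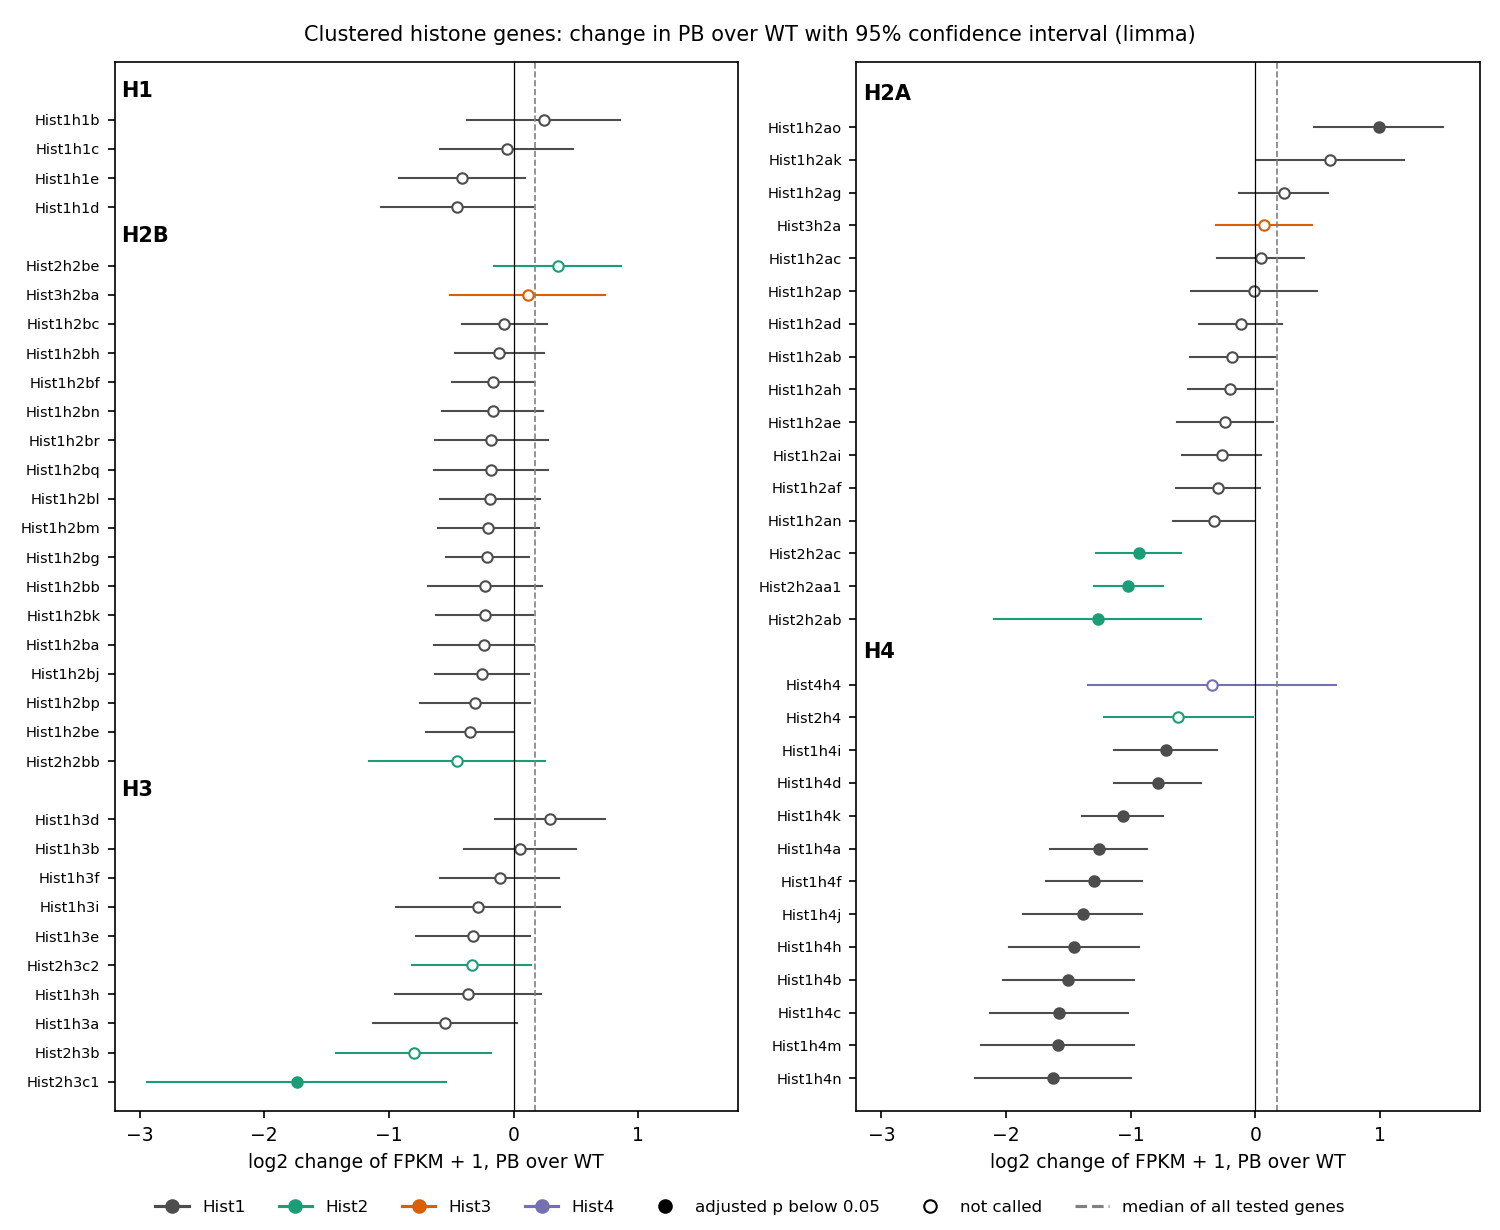
Log2 change of FPKM + 1 in PB over WT for the 61 tested members, by type, with 95% confidence intervals from limma; colour marks the cluster, filled points have an adjusted p below 0.05, and the dashed line is the median of all tested genes at 0.17. The 11 H4 genes of Hist1 and 4 genes of Hist2 are filled left of 0, and Hist1h2ao is filled right of 0.

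Non-overlap between the groups gave a like picture. It was seen for 19 members lower in PB and 2 higher, where 13.1% of all tested genes were lower and 34.7% higher without overlap. The 2 higher were Hist1h2ao and Hist1h2ak, and Hist1h2ak stood at 2.65, 1.43 and 1.08 FPKM in PB, against 0.719, 0.612 and 0.916 FPKM in WT (limma adjusted p = 0.115). Hist1h2ak passed the filter on low values through PB alone, where it is higher. Of the 19 lower, 11 were H4, 6 H2A and 2 H3 genes.

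Of 20 listed replacement variants, 11 were tested, of which 5 rose and 1 fell, where 24.9% of all tested genes rose and 7.46% fell. With quantile normalization 3 of them rose, where 16.3% of all tested genes did. The H3.3 genes, whose protein replaces H3 outside replication, were the most abundant. H3f3a had 479.9, 518 and 695 FPKM in PB, against 287, 271 and 317 FPKM in WT (log2 change 0.93, SE 0.16, limma adjusted p = 0.00298). H3f3b had 1114, 1066 and 1283 FPKM in PB, against 758, 606 and 732 FPKM in WT (log2 change 0.73, SE 0.14, limma adjusted p = 0.00533, and 0.0865 without replicate 5 of both groups). In neither gene did a WT library reach the lowest PB library. Clustered H3 genes made up 1.62%, 1.95% and 1.496% of the FPKM of clustered H3 and H3.3 genes together in PB, against 3.42%, 3.99% and 4.67% in WT.

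H2afy, which encodes the large variant macroH2A1, had 55.3, 49.7 and 64.2 FPKM in PB, against 30.0, 32.9 and 35.5 FPKM in WT, with a log2 change of 0.76 (limma adjusted p = 0.0044). H2afx, the variant phosphorylated at DNA breaks, had 14.8, 19.4 and 16.98 FPKM in PB, against 9.74, 12.3 and 11.4 FPKM in WT (log2 change 0.57, limma adjusted p = 0.0259). H2afy2, encoding macroH2A2, was low at 2.56, 3.49 and 1.92 FPKM in PB, against 1.02, 0.404 and 1.30 FPKM in WT (log2 change 0.95, limma adjusted p = 0.0256, and 0.0503 with replicate numbers as a block). It passed the filter on low values through PB alone, where it is higher. In H2afy, H2afx and H2afy2 the PB libraries lay above the WT libraries. H2afy kept its call in every fit run for it, while that of H2afx was lost without PB replicate 5 or 8, without any 1 of the WT replicates and without any 1 replicate number (adjusted p = 0.0505 to 0.163), and under each of the 3 other scalings (0.0886 to 0.151). That of H2afy2 was lost without PB replicate 3 or 5, WT replicate 3 or 5, or replicate number 3 or 5 (adjusted p = 0.0521 to 0.24), with no filter (0.0555), with quantile normalization (0.192) and with libraries rescaled outside their 5 most abundant genes (0.0514). H2afj had 98.9, 100.3 and 111 FPKM in PB, against 127, 129 and 151 FPKM in WT, and fell narrowly (log2 change -0.39, limma adjusted p = 0.047). Its call held in only 1 of the fits that left out libraries, that without PB replicate 8, with adjusted p of 0.0504 to 0.272 in the others, and was lost with no intensity trend (0.0843).

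H2afz, encoding H2A.Z, had 106, 134 and 138 FPKM in PB, against 85.1, 91.2 and 102 FPKM in WT, without overlap but not called (log2 change 0.43, limma adjusted p = 0.054, and 0.0272 with the block). Cenpa, the centromeric H3, had 2.36, 2.62 and 8.40 FPKM in PB, against 0.528, 0.348 and 3.00 FPKM in WT (limma adjusted p = 0.0903, and 0.00371 with the block), so replicate 8 was the highest in each group. H1fx, a linker variant, had 2.57, 1.95 and 3.91 FPKM in PB, against 1.182, 1.04 and 2.26 FPKM in WT (limma adjusted p = 0.121, and 0.0481 with the block). H1f0, the linker histone of resting cells, and H2afv were not called, with limma adjusted p of 0.306 and 0.3.

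Genes of the machinery that makes and trims histone messages were mostly not called. Of 23 listed genes of histone transcription and 3′ end processing, 19 were tested, 4 rose, none fell and 15 were not called, a share near the 24.9% of all tested genes that rose. Slbp, whose product binds the stem-loop, had 21.5, 24.5 and 21.7 FPKM in PB, against 12.6, 9.83 and 10.9 FPKM in WT (log2 change 0.97, SE 0.15, limma adjusted p = 0.0015). Lsm10, a component of the U7 particle that guides cleavage, had 14.3, 18.8 and 15.9 FPKM in PB, against 6.39, 8.58 and 10.1 FPKM in WT (log2 change 0.90, limma adjusted p = 0.00758, and 0.083 without replicate 5 of both groups). The PB libraries lay above all WT libraries for both. Nfyb, a subunit of the CCAAT-binding factor, and Eri1, a nuclease of the histone message's end, rose with limma adjusted p of 0.0345 and 0.0289, which reached 0.217 and 0.342 where libraries were left out or scaled otherwise. Npat, the coactivator of histone genes, had 2.18, 2.37 and 1.47 FPKM in PB, against 1.51, 0.837 and 0.732 FPKM in WT, which overlapped (limma adjusted p = 0.0986). Of 11 poly(A) addition and termination genes, 2 rose and none fell, where 24.9% of all tested genes rose. Both calls (Clp1 and Cpsf6) were lost in most fits that left out libraries and under other scalings, with adjusted p of up to 0.18 and 0.372.

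**Figure D5:**
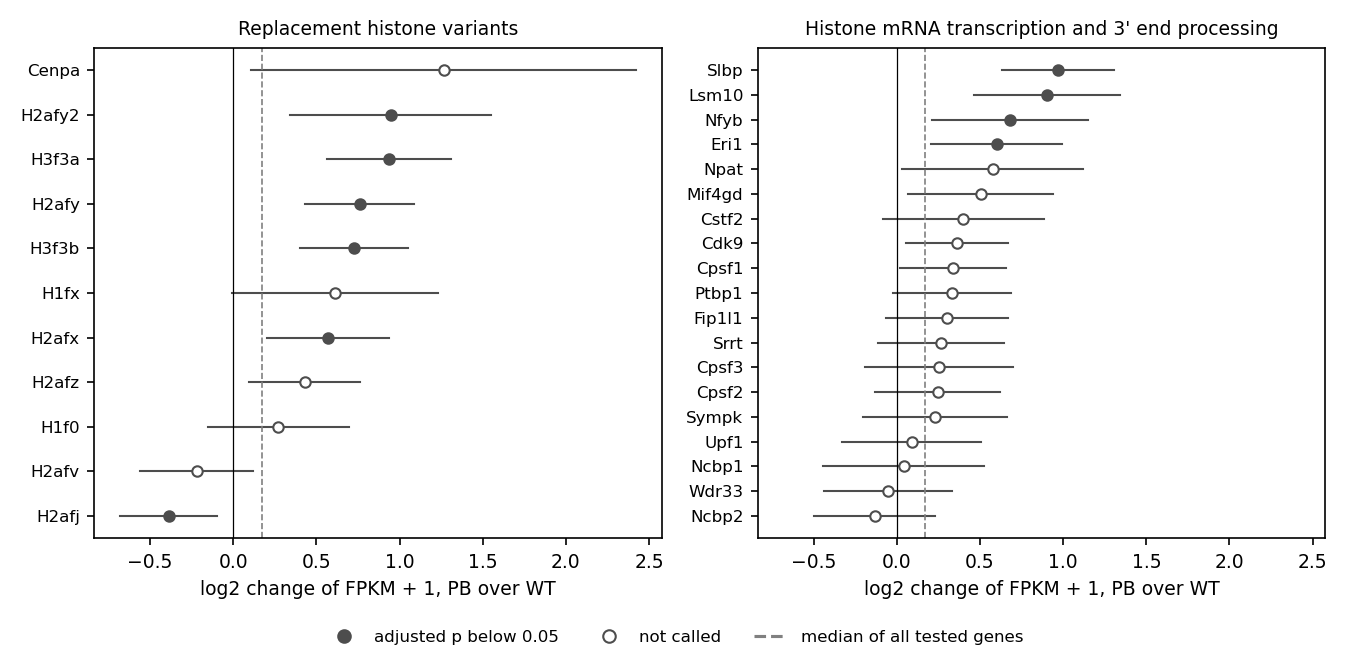
Log2 change of FPKM + 1 in PB over WT, with 95% confidence intervals from limma, for the 11 tested replacement variants on the left and the 19 tested genes of histone transcription and 3' end processing on the right; filled points have an adjusted p below 0.05 and the dashed line is the median of all tested genes. H2afj is the only filled point left of 0.

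Clustered histone genes serve DNA replication, so its other genes are given beside them. Of 30 tested S phase genes, 14 rose and 1 fell, where 24.9% of all tested genes rose and 7.46% fell. With quantile normalization 8 rose and 4 fell, where 16.3% of all tested genes rose and 21.1% fell. With a minimum mean of 5 FPKM 3 rose and none fell, where 1763 of all 7202 genes then tested rose and 691 fell. A gene under 1 FPKM in WT entered the test only where it was higher in PB, so counts of this list and the next lean to rises. Mcm6, a subunit of the replicative helicase, had 14.1, 14.99 and 14.9 FPKM in PB, against 3.01, 4.28 and 4.84 FPKM in WT (log2 change 1.65, SE 0.18, limma adjusted p = 0.000263). Mcm5 had 2.98, 4.46 and 2.43 FPKM in PB, against 0.281, 0.776 and 0.666 FPKM in WT (limma adjusted p = 0.0029). Mcm3 and Gins2 rose too, with limma adjusted p of 0.00148 and 0.00908, and Gins2 was lost without replicate 5 (0.0812) or replicate 8 (0.0709) of both groups. Pcna, the sliding clamp of the replication fork, had 28.0, 30.3 and 37.8 FPKM in PB, against 18.5, 20.3 and 18.5 FPKM in WT (log2 change 0.71, limma adjusted p = 0.0078, and 0.0666 without replicate 5 of both groups). In these genes every PB library exceeded every WT library. E2f1, a factor that activates S phase genes, fell, at 0.877, 0.975 and 0.56 FPKM in PB, against 2.12, 1.97 and 2.22 FPKM in WT (limma adjusted p = 0.017). It passed the filter on low values through WT alone, where it is higher. Its call was lost without any 1 of the WT replicates and without any 1 replicate number (adjusted p = 0.0512 to 0.0943).

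Of 9 tested G2 and mitosis genes, 6 rose and none fell, where 24.9% of all tested genes rose and 7.46% fell. Ccna2, the gene of cyclin A2, had 2.52, 2.53 and 2.45 FPKM in PB and was listed at 0 in all WT libraries (limma adjusted p = 0.000288). Birc5, Ube2c and Ccnb2 rose as well, with limma adjusted p of 0.00362, 0.00856 and 0.00526. Ube2c was lost without replicate 3 (0.0743) or replicate 5 (0.0639) of both groups, and Ccnb2 without replicate 3 of both (0.0636). Top2a had 1.25, 1.30 and 1.98 FPKM in PB, against 1.12, 1.54 and 2.07 FPKM in WT, and was not called (limma adjusted p = 0.927). Mki67 was under the minimum for testing, at 0.45, 0.505 and 0.706 FPKM in PB, against 0.133, 0.0463 and 0.382 FPKM in WT. Of the 30 listed genes, 21 were under that minimum, so these transcripts were near the lower limit of what was tested in both groups. Which cells they came from was not tested.

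Histone chaperones, which carry histones to DNA, and chromatin assembly genes had 9 of 30 tested genes higher, none lower and 21 not called, a share near the 24.9% of all tested genes that rose. With quantile normalization 1 was higher and 1 lower, where 16.3% of all tested genes rose and 21.1% fell. Hat1, which acetylates newly made H4, had 22.2, 24.5 and 25.1 FPKM in PB, against 9.34, 11.2 and 12.2 FPKM in WT (log2 change 1.07, SE 0.15, limma adjusted p = 0.00094). Its groups were far apart. Asf1b and Chaf1b, which hand H3 and H4 to new DNA, rose with limma adjusted p of 0.0185 and 0.0175, and Anp32b with 0.023. Without replicate 5 of both groups, which left 1 chaperone gene called, their adjusted p was 0.153, 0.182 and 0.124, and with quantile normalization it was 0.126, 0.138 and 0.061.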

How the data were processed

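RNA of sorted mouse prostate luminal cells was sequenced in 3 PB and 3 WT libraries. SMART-Seq v4 cDNA was primed with random and oligo-dT primers, per the labels' protocols, and both library kits they name, Nextera XT and TruSeq DNA, leave strand unmarked. Per the submitters' processing notes, bcl2fastq 1.8.3, TopHat and Cufflinks were used with mm10, and the other versions were not stated. The authors deposited 1 Cufflinks transcript table per library with FPKM and its confidence bounds, also in FPKM, per the file headers. The deposited coverage column is a signal, the mean read depth of a transcript, and was checked to be a constant times FPKM within each table. No fragment totals are given, so the number of fragments behind a value is unknown.

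FPKM were summed per gene symbol, as deposited, with no further scaling. Genes averaging 1 FPKM or more across the 6 libraries, 10960 in all, were fitted on log2(FPKM + 1) with limma 3.58.1 in R 4.3.3, two-sided with an intensity trend; p-values were adjusted by Benjamini-Hochberg and called below 0.05. Log2 changes on this scale understate changes of low genes. Sums over members have no test. The script was tested on simulated data. Promoter windows came from RefSeq (GRCm38.p6) and stem-loops from GENCODE M21 (GRCm38). Ambiguity between members was measured as the share of a transcript's 50-base windows also present in another gene.

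Members and gene lists were chosen with earlier results of these data known. Every tested member could be named, with values for up to 20 called members and the 3 most abundant of each type; other lists gave every tested replacement variant, the 4 largest calls in each direction, and Slbp, Npat, Mki67, Top2a, Pcna, Ccna2 and Csf1. Same-numbered PB and WT libraries deviated together from their group means (r = 0.244, 0.109 and 0.181 for numbers 3, 5 and 8, across genes, which are not independent), so a fit with the number as a block was run beside the main one. The alternatives changed the pseudocount, filter, scaling, trend, weights and block, dropped genes with a failed status, left out libraries, and, chosen after seeing the data, took 1 place per accession.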

Additional observations from a re-analysis of the deposited data

How the results depend on the processing

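The count of clustered histone genes lower in PB was 15 in the fit reported. It was 42 with quantile normalization and 23 with rescaling outside the 5 most abundant genes, and over all tested genes the median change was 0.17 (log2) in the fit reported, -0.16 with quantile normalization and -0.03 with the rescaling. The count lower in PB ranged from 12 to 16 where libraries were left out. All 15 calls were kept under those scalings, and no called change reversed in 1918 alternative values of 95 named genes, of which 125 lost and 60 gained a call. Changes that were not called did change sign in some fits, such as those of Hist1h1c in 4, Hist1h3b and Hist3h2a in 6 each, Hist3h2ba in 5 and Top2a in 4. Of all tested genes, 2733 rose and 818 fell in the fit reported, and 1789 rose and 2310 fell with quantile normalization. The count higher in PB was 2 with array weights and 0 to 1 where libraries were left out. The replicate block changed the calls of H1fx, H2afz, Cenpa, H2afy2 and Cpsf6 (adjusted p = 0.0563) and no other call among the named genes, with 15 members lower and 1 higher. The causes of these shifts were not tested.

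Replacement variants lower numbered 2 with median-ratio scaling, 0 with no intensity trend and 0 to 1 with libraries left out, and those higher 3 with quantile normalization, 3 with rescaling outside the 5 most abundant genes and 2 to 6 with libraries left out. Processing genes higher numbered 2 with no filter, 2 with quantile normalization, 2 with median-ratio scaling, 2 with the rescaling, 8 with array weights and 1 to 4 with libraries left out. Chaperone genes higher numbered 1 with quantile normalization (1 lower), 5 with median-ratio scaling, 4 with the rescaling and 1 to 8 with libraries left out. S phase genes higher numbered 3 with a minimum mean of 5 FPKM (0 lower), 8 with quantile normalization (4 lower) and 7 to 12 with libraries left out (0 to 1 lower). G2 and mitosis genes higher numbered 10 with no filter, 1 with a minimum mean of 5 FPKM and 3 to 6 with libraries left out.

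The log2 ratios of summed FPKM, PB over WT, are given for quantile normalization, median-ratio scaling and rescaling outside the 5 most abundant genes in that order. They were -1.05, -1.07 and -1.07 for H2A, -0.40, -0.38 and -0.37 for H2B, -1.06, -0.73 and -0.73 for H3, and -1.45, -1.45 and -1.44 for H4. By cluster they were -0.83, -0.80 and -0.80 for Hist1, -1.21, -1.25 and -1.25 for Hist2, and -0.19, -0.17 and -0.16 for Hist3. With 1 place per accession H2A was at -0.76. Without the most abundant member, H2A was at -0.10, H2B at -0.23 and H4 at -1.43. With libraries left out, H4 ranged from -1.44 to -1.10, Hist1 from -0.70 to -0.50 and Hist2 from -1.07 to -0.92. Libraries number 3 a group and WT was the shallower, so levels near 1 FPKM were the least certain.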
